A study of Mus musculus with 4 samples.

Results

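The rows Gm26917, CT010467.1 and Gm42418 are 3 predicted genes described as resembling ribosomal RNA repeats, a likeness not checked here by sequence. They make up 3 of the 46406 rows of the deposited table. They were chosen by symbol, after their reads and the spread between replicates in all 4 libraries had been seen. Their levels are therefore given as a description, with no test. The libraries are ATAC-seq libraries, in which the Tn5 transposase cuts and tags open DNA, from J1 mouse embryonic stem cells grown without feeder cells. All carry the passage label PN+8. The 2 control libraries are labelled wild type, and the 2 others come from cells that overexpress Zscan4 (Zscan4 OE), a zinc finger protein gene of early embryos whose effect on chromatin accessibility the comparison asks about. The labels give neither the construct that drives Zscan4 nor whether replicates came from separate cultures, so the spread between them may be technical.

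Ribosomal RNA is transcribed in the nucleolus by RNA polymerase I from long tandem arrays of one repeated unit. Each transcript is processed into the small-subunit rRNA, the main large-subunit rRNA and a short rRNA that pairs with the latter. In a mammalian cell a part of the arrays is open and transcribed and another part is packed into silent heterochromatin. The arrays are mostly left out of the assembled mouse genome, so reads from many copies can gather on the few rRNA-like stretches that are in it. A level at such a row can follow the number of copies, their openness and the way multiply matching reads were treated, and these were not told apart here.

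Control 1 had a library total of 1061428 reads and control 2 of 2903602, against 3605774 for Zscan4 OE 1 and 4899494 for Zscan4 OE 2. Reads in the table, called exon reads below, made up 12.4%, 9.38%, 12.8% and 9.93% of these totals. The 6 stem cell genes checked did not mark the cell type clearly, with a mean of 2.36, 1.25, 3.02 and 1.57 RPKM (reads per kilobase and per 1000000 reads) in the 4 libraries, against 1.005, 1.11, 1.21 and 0.895 for 6 fibroblast genes. Exon accessibility is a weak guide to expression, and these values rest on 36 to 168 reads per list and library. The values printed by the authors are RPKM over a library total that changes from row to row, so each was turned back into whole reads and rescaled to the library's own total.

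Of the 3 rows, 1 had an entry in RefSeq. Gm42418 is there a synonym of Rn18s-rs5, a pseudogene related to the small-subunit rRNA, on chromosome 17 from 39846354 to 39848202 (GRCm38.p6). Its span of 1849 bp is close to the 1831 bp recovered from the deposited values. The next gene, the long non-coding gene AY036118 (39848112 to 39898385), overlaps it by 91 bp. Gm26917 and CT010467.1 have recovered lengths of 3329 and 2466 bp. The order of the rotating totals gives a partial view of where these rows stood in the authors' original row order. There Gm26917, CT010467.1, Gm42418 and AY036118 stood at 4 successive steps of a rotation of 8, in that order. Genes that neighbour each other in RefSeq stood 1 step apart in 71.3% of 24901 pairs, against 12.5% for an order unrelated to position. A step fixes a place only up to multiples of 8 rows, so the order of the rows is a description and not a map position. If the annotated rows overlap, the settings used for reads on more than 1 feature would move their counts, and no source used here states those settings.

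Few reads fell on the other rows seen around it. Within 500000 bp of Gm42418 the rows analysed, besides AY036118 with 233 reads, were the pseudogene Tgif2-ps2 with 4 reads over the 4 libraries, the testis kinase gene Pgk2 with 8, and the secretory protein genes Crisp3 and Crisp1, both listed at 0. The protein-coding genes Esp18, Esp16, Esp15 and Esp38 of this stretch were not analysed here, nor was sequence between exons. Gm42418 itself had 1675. The 12 rows next to the members in the deposited table, which is not in genome order, had 1 to 42 reads, with a median of 4.5.

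Gm26917 held the most reads of the trio. There were 709 reads of it in control 1, 1037 in control 2, 2335 in Zscan4 OE 1 and 1650 in Zscan4 OE 2. Per 1000000 reads of the library total (RPM) this was 668 (exact Poisson 95% interval 620 to 719), 357 (336 to 380), 648 (622 to 674) and 337 (321 to 353), where the intervals cover counting error only. Control 1 and Zscan4 OE 1 were high, control 2 and Zscan4 OE 2 were low, and the groups overlapped. The means were 513 ± 220 RPM for controls and 492 ± 220 for Zscan4 OE (SD, n = 2), a ratio of 0.960.

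CT010467.1 had 327, 465, 1255 and 894 reads in controls 1 and 2 and Zscan4 OE 1 and 2. Its level was 308 RPM (276 to 343) in control 1, 160 (146 to 175) in control 2, 348 (329 to 368) in Zscan4 OE 1 and 182 (171 to 195) in Zscan4 OE 2. Again the libraries numbered 1 were high and those numbered 2 low, and the groups overlapped. The means were 234 ± 105 RPM for controls and 265 ± 117 for Zscan4 OE (SD, n = 2), a ratio of 1.13 that was smaller than the spread between replicates.

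Gm42418, the row that RefSeq ties to the small-subunit rRNA, had 192, 296, 645 and 542 reads. Its level was 181 RPM (156 to 208) in control 1 and 102 (90.7 to 114) in control 2. In Zscan4 OE it was 179 (165 to 193) and 111 (102 to 120). The pattern was that of the other rows, with overlapping groups and means of 141 ± 55.8 and 145 ± 48.3 RPM (SD, n = 2), a ratio of 1.02.

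**Figure D1:**
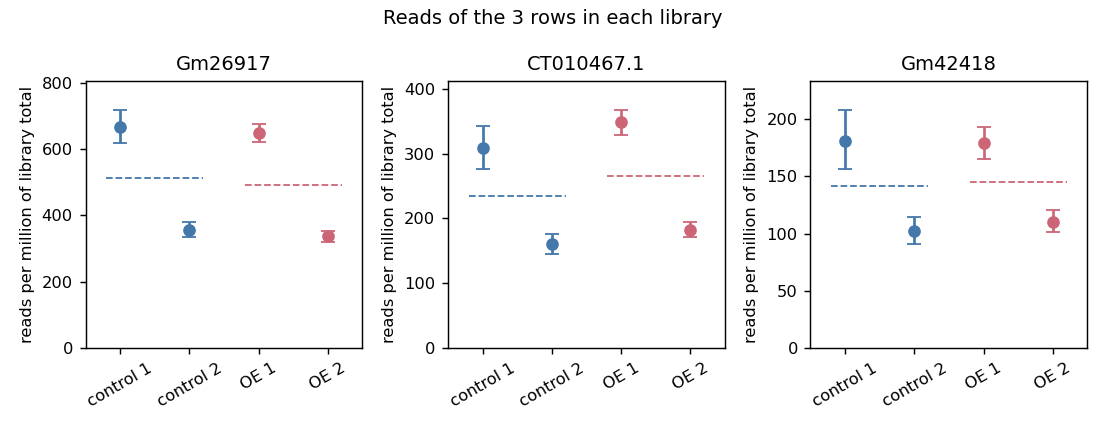
RPM, reads per 1000000 of the library total (vertical axis, from 0) for Gm26917, CT010467.1 and Gm42418 in the 4 libraries (horizontal axis; OE is Zscan4 overexpression). Points are libraries, bars are exact Poisson 95% intervals and dashed lines are group means; in each row both libraries numbered 1 lie above both numbered 2, while the group means are close.

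Summed over the 3 rows, the level was 1157 RPM (1093 to 1223) in control 1, 619 (591 to 649) in control 2, 1175 (1139 to 1210) in Zscan4 OE 1 and 630 (608 to 652) in Zscan4 OE 2. The 1.87-fold difference between the controls was as large as the 1.86-fold difference between the Zscan4 OE libraries. The group means, 888 ± 380 and 902 ± 385 RPM (SD, n = 2), differed 1.02-fold. A change with Zscan4 overexpression smaller than this spread was not detectable, and leaving out 1 library moved the log2 difference of the means from 0.02 to 0.54 when control 1 was dropped and to −0.36 when control 2 was. Dropping Zscan4 OE 1 gave −0.50, and dropping Zscan4 OE 2 gave 0.40.

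The share of exon reads does not depend on which total was assigned to which library, though the reads themselves were recovered through the rotating totals. By that measure the 3 rows held 0.936% and 0.660% of the reads in controls 1 and 2, against 0.917% and 0.634% in Zscan4 OE 1 and 2. The libraries numbered 1 were again above those numbered 2, now 1.42-fold in controls and 1.45-fold in Zscan4 OE. The group means were 0.798% ± 0.195 and 0.776% ± 0.200 (SD, n = 2). Within each group the library with the larger share of rRNA-like reads was also the shallower and the one with the larger share of exon reads, and the part of either in the difference was not tested.

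Over all rows, limma on log2(RPKM + 0.1) with Benjamini-Hochberg adjustment called 0 of 42989 at an adjusted p under 0.05, 0.0% of those tested. At an unadjusted p under 0.05, 2189 rows were higher and 573 lower in Zscan4 OE, 6.42% of those tested. With voom on rows with 20 reads or more 1 was called. Without Zscan4 OE 1 limma called 4340 higher and 9 lower, and without Zscan4 OE 2 it called 3860 and 2. The groups did not overlap in 29.7% of tested rows, and they overlapped in all 3 rRNA-like rows. In the same fit the log2 differences were −0.06 for Gm26917, 0.18 for CT010467.1 and 0.05 for Gm42418, where the median of all tested rows was 0.28. With each library centred on its median they were −0.34, −0.09 and −0.22, so the sign of the last pair depended on the scaling.

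As deposited, the same rows look different. Gm26917 was listed at 73.3, 129, 314 and 467 RPKM, with both Zscan4 OE libraries above both controls. The totals behind these values were 2904894, 2410704, 2233983 and 1061428 reads, so the last value is divided by the total taken here to be that of control 1. Rescaled to each library's own total, Gm26917 stood at 201, 107, 195 and 101 RPKM. The ratio of Zscan4 OE to control means was 3.86 as deposited and 0.960 after rescaling.

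CT010467.1 was listed at 55.0, 84.4, 479 and 125 RPKM and stood at 125, 64.9, 141 and 74.0 after rescaling. Its ratio fell from 4.33 to 1.13. Gm42418 was listed at 46.9, 152, 121 and 82.1 RPKM and stood at 98.8, 55.7, 97.7 and 60.4, with ratios of 1.02 and 1.02. In the deposited values 2 of the 3 rows, Gm26917 and CT010467.1, were higher in both Zscan4 OE libraries than in either control, as were 47.5% of all 43469 rows with a mean of at least 0.1. None of the 3 was in the rescaled values.

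**Figure D2:**
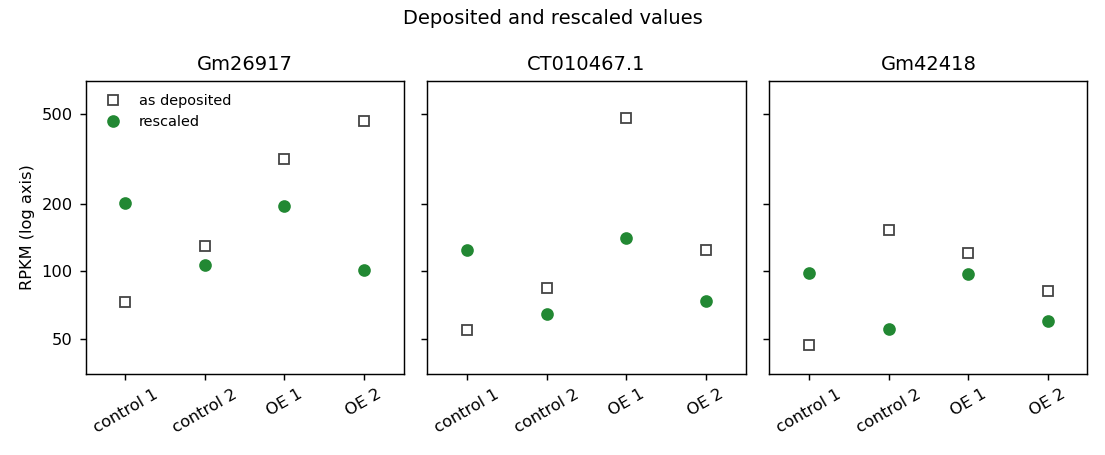
RPKM on a log axis for the 3 rows in the 4 libraries, as deposited (open squares) and after rescaling to each library's own total (filled circles). As deposited Gm26917 is at 73.3 in control 1 and 467 in Zscan4 OE 2, while the rescaled values of all 3 rows are high in the libraries numbered 1 and low in those numbered 2.

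AY036118 needed no rescaling, because the total behind each of its deposited values is the one assigned here to that library. This follows from the assignment of totals, so the row is no separate check on that assignment. AY036118 was at 24.5, 10.4, 34.3 and 14.8 RPKM, from 24, 28, 114 and 67 reads. The libraries numbered 1 were 2.34-fold (controls) and 2.31-fold (Zscan4 OE) above those numbered 2. The groups overlapped, with a ratio of 1.40 between their means.

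A higher level in library 1 than in library 2 was common in rows with many reads, while differences as large in both groups were less so. Among 2619 rows with 100 reads or more and reads in every library, the median ratio of library 1 to library 2 was 1.42 in controls and 1.33 in Zscan4 OE, and 65.6% of rows were higher in library 1 in both groups. For Gm26917 the ratios were 1.87 and 1.92, which 29.9% of these rows reached or passed in controls and 9.70% in Zscan4 OE. CT010467.1 stood at 1.92 and 1.91 (27.7% and 10.3% of rows), and Gm42418 at 1.77 and 1.62 (33.3% and 23.6%). Both ratios of Gm26917 were reached or passed together in 131 of the 2619 rows, the row itself included. For CT010467.1 this count was 127 and for Gm42418 it was 291. The 3 rows thus lay on the side of the larger differences, inside the range of other rows. The counting error of a library was 2.07% to 7.22% of its value in these rows, far below the differences.

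**Figure D3:**
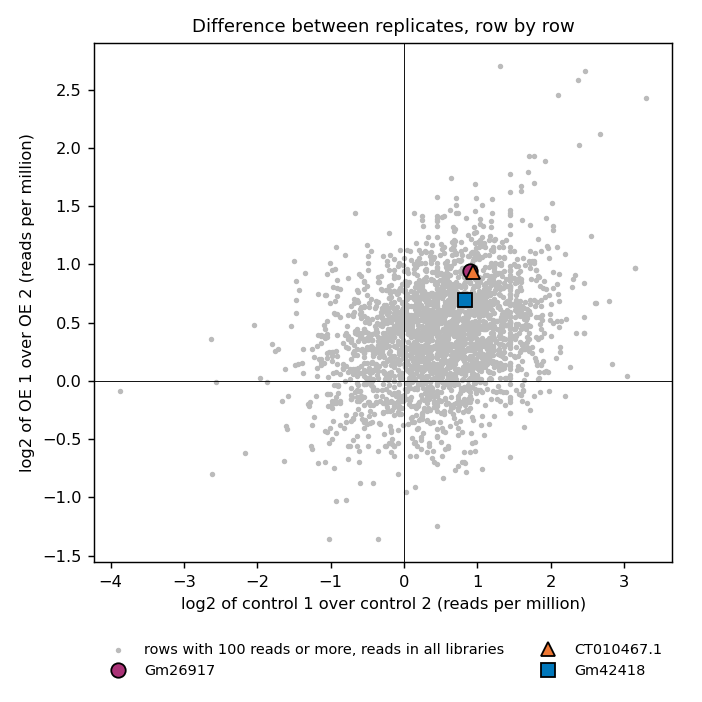
Log2 ratio of control 1 to control 2 (horizontal axis) against that of Zscan4 OE 1 to Zscan4 OE 2 (vertical axis), both from RPM, for 2619 rows with 100 reads or more (grey) and the 3 rRNA-like rows (coloured symbols). The 3 rows lie in the upper right quadrant with 65.6% of all rows, inside the cloud.

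The rows with the profile most like that of the summed trio were ordinary protein-coding genes with far fewer reads. Likeness was the Euclidean distance between log2 RPM over the 4 libraries, each centred on its own mean, among 2616 other rows with 100 reads or more. The 5 nearest were Ap5z1, a subunit of an adaptor complex of vesicle sorting (distance 0.031), Ndrg4, an NDRG-family gene (0.068), Tacc3, a mitotic spindle protein gene (0.0995), Gmip (0.0999), and Mast1, a microtubule-associated kinase gene (0.102). Their totals ran from 103 to 210 reads. Ap5z1 had 12, 18, 42 and 31 reads in controls 1 and 2 and Zscan4 OE 1 and 2. Counting error is large beside distances this small, so the order of these rows is not firm. The median distance was 0.746, and 527 rows (20.1%) lay within 0.5. The members stood at 0.093 (Gm26917), 0.163 (CT010467.1) and 0.157 (Gm42418). With 4 libraries, such nearness is a description of depth and replicate differences that many rows share.

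By number of reads the trio stood near the top of the table. Over the 4 libraries Gm26917 ranked 2 with 5731 reads, CT010467.1 ranked 3 with 2941 and Gm42418 ranked 5 with 1675. Among all rows only the repeat-like predicted gene Gm10800 had more than Gm26917, with 7486. Per base, Gm26917 ranked 7 among rows with 100 reads or more, at 1.72 reads per base, CT010467.1 ranked 13 at 1.19 and Gm42418 ranked 24 at 0.915. The rows above Gm26917 per base were Gm10800 (11.3), Gm28438 (4.28), Gm10222 (3.75), Gm10925 (2.41), Gm28437 (2.20) and Gm28661 (1.91), all with recovered lengths of 294 to 783 bp. The next were the small RNA rows Gm22973 (1.71), Gm24830 (1.55) and Gm25360 (1.51), of 166 or 191 bp. The rRNA-like rows thus combined a high density with much longer features. Gm10800 went the other way between replicates, with 697 reads in control 1 and 3627 in control 2, and 836 and 2326 in the Zscan4 OE libraries. These reads are not scaled to the library totals, which ran from 1061428 in control 1 to 4899494 in Zscan4 OE 2. The direction between replicates holds after scaling, but the raw gaps overstate it, and raw reads do not compare the groups.

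The order of the trio per base was the same in every library, with Gm26917 highest and Gm42418 lowest. Gm26917 had 2.03, 1.93, 1.99 and 1.67 times the RPKM of Gm42418 in controls 1 and 2 and Zscan4 OE 1 and 2. CT010467.1 had 1.26, 1.17, 1.44 and 1.22 times that of Gm42418. The counting intervals of these neighbours in rank overlapped in both controls, at 112 to 139 against 85.3 to 114 RPKM and 59.2 to 71.1 against 49.5 to 62.4. They did not in Zscan4 OE, at 133 to 149 against 90.3 to 106 and 69.2 to 79.0 against 55.4 to 65.7. The control means were 94.9 ± 42.4 RPKM for CT010467.1 and 77.2 ± 30.5 for Gm42418 (SD, n = 2). Both rows were high and low in the same libraries, so these SDs do not measure the spread of the gap within a library.

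The makeup of the trio within a library does not depend on which total was assigned to that library. The reads behind it were still recovered through the rotating totals. Gm26917 held 57.7% (Wilson 95% interval 55.0 to 60.5) of the 3 rows' reads in control 1 and 57.7% (55.4 to 59.9) in control 2. It held 55.1% (53.6 to 56.6) in Zscan4 OE 1 and 53.5% (51.7 to 55.2) in Zscan4 OE 2. CT010467.1 held 26.6% (24.2 to 29.2) and 25.9% (23.9 to 27.9) in the control libraries. Its Zscan4 OE shares were 29.6% (28.3 to 31.0) and 29.0% (27.4 to 30.6). For Gm26917 and CT010467.1 the groups did not overlap. For each, the intervals did in 3 of the 4 pairings of a control with a Zscan4 OE library. The shares are parts of 1 whole, so these rows are not separate observations. How often such shares differ for other rows was not counted. For a related measure, a row's reads over those of Gm26917, the groups did not overlap in 27.3% of 2619 rows with 100 reads or more. Gm42418 held 15.6%, 16.5%, 15.2% and 17.6%, with overlapping groups.

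Set against each other alone, Gm26917 made up 68.4% (65.5 to 71.2) and 69.0% (66.7 to 71.3) of the reads of the pair Gm26917 and CT010467.1 in the controls. In Zscan4 OE the shares were 65.0% (63.5 to 66.6) and 64.9% (63.0 to 66.7). The libraries of a group were close, and the groups stood 3.39 to 4.18 percentage points apart. The intervals overlapped in 3 of the 4 pairings of a control with a Zscan4 OE library. The pair was picked after its values were seen. Among 2619 rows with 100 reads or more, the ratio of a row's reads to those of Gm26917 did not overlap between the groups in 27.3%, so a gap of this kind was frequent.

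**Figure D4:**
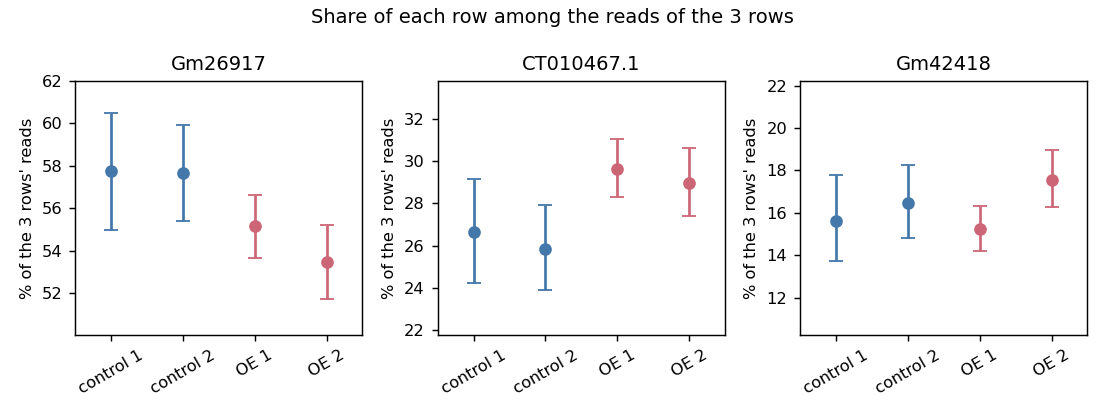
Share of each row among the reads of the 3 rows (vertical axis, percent, each panel spanning 12 points and not starting at 0) in the 4 libraries, with Wilson 95% intervals. Gm26917 runs from 57.7% in both controls to 53.5% in Zscan4 OE 2, CT010467.1 is higher in both Zscan4 OE libraries, and Gm42418 overlaps.

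Rows named n-R5s take their name from the small rRNA of the large subunit that RNA polymerase III makes from separate genes. The symbol Rn5s, also looked for, had no row, and whether the n-R5s rows are working genes was not checked. Of 130 such rows 115 had a read, and they summed to 27.3 RPM (18.3 to 39.2, 29 reads) in control 1 and 17.9 (13.4 to 23.5, 52 reads) in control 2. In Zscan4 OE they summed to 18.6 (14.4 to 23.6, 67 reads) and 19.4 (15.7 to 23.7, 95 reads). These sums are lower limits, because a factor shared by a row's length and its reads cannot be seen. In Zscan4 OE 2, n-R5s169 came out at 1 read over 40 bp and n-R5s10 at 1 read over 119 bp. The intervals do not cover this. The intervals of all 4 libraries overlapped, and the libraries numbered 1 were not both above those numbered 2. Of the 115 tested, 0 passed over all rows. At an unadjusted p under 0.05 there were 9 (7.83%), near the 6.42% of all tested rows, and these 9 had 2 to 6 reads over the 4 libraries, 8 of them with 0 reads in both libraries of 1 group (limma).

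The genes that make, process and silence ribosomal RNA showed no call in their own exon accessibility. Of 22 tested genes of RNA polymerase I and its factors, 18 had log2 differences above 0 and 4 below, 0 passed over all rows, 0 had an unadjusted p under 0.05, and the median was 0.41 against 0.28 for all tested rows. Their summed level overlapped between the groups, at 119 and 84.0 RPM in controls 1 and 2 against 187 and 114 in Zscan4 OE. Those with the largest statistics were Polr2h, a subunit shared by the RNA polymerases, with 1, 2, 11 and 7 reads, Twistnb, a polymerase I subunit gene, with 2, 2, 15 and 20, and Taf1d, a subunit of the polymerase I selectivity factor, with 20, 34, 192 and 116. Taf1d averaged 1.71 ± 0.564 RPKM in control libraries against 4.30 ± 2.34 after overexpression (SD, n = 2). Polr2h averaged 1.13 ± 0.247 against 3.09 ± 1.58 RPKM, and Twistnb 0.250 ± 0.164 against 0.800 ± 0.0107 (SD, n = 2). Their adjusted p was 0.869 each (limma).

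Of 30 genes of rRNA processing and modification, 23 lay above 0 and 7 below, the median was 0.35, and 0 passed, with 1 (Gar1, 3.33% of the list) at an unadjusted p under 0.05, against 6.42% of all tested rows. Gar1, a protein of the particles that convert uridines of rRNA to pseudouridine, had 1, 3, 12 and 20 reads and averaged 0.576 ± 0.0376 RPKM in control libraries against 2.16 ± 0.311 after overexpression (SD, n = 2). Its log2 difference was 1.74 (SE 0.452, limma adjusted p = 0.486). Nop58, a core protein of the particles that methylate rRNA, was at 1.08 ± 0.210 and 2.10 ± 0.159 RPKM, and Emg1, an rRNA methyltransferase gene, at 0.593 ± 0.312 and 1.34 ± 0.217 (SD, n = 2), with adjusted p = 0.869 each (limma). The groups did not overlap in these 3 genes, but they were named for the largest statistics of the list, which favours such a gap. The groups did not overlap in 29.7% of all tested rows, a share of rows not picked in this way. The list summed to 252 and 198 RPM in controls 1 and 2 against 346 and 227 in Zscan4 OE, with overlapping groups.

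Of 11 genes linked to silencing or control of the rRNA repeats, 5 lay above 0 and 6 below, the median was −0.08, and 0 passed, also at an unadjusted p under 0.05. With voom on rows with 20 reads or more, 0 genes of these 3 lists passed. Sirt7, a nucleolar deacetylase gene, averaged 1.15 ± 0.0751 RPKM in control libraries against 0.806 ± 0.150 after overexpression (SD, n = 2). Hdac1, a histone deacetylase gene, was at 1.32 ± 0.453 and 1.86 ± 0.448, and Kdm2b, a histone demethylase gene, at 0.985 ± 0.534 and 1.37 ± 0.264 (SD, n = 2). Their adjusted p was 0.869 each (limma). Summed reads came to 98.9 and 92.3 RPM in controls 1 and 2 against 101 and 81.2 in Zscan4 OE.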

How the data were processed

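ATAC-seq was made with the TruePrep DNA Library Prep Kit V2, per the labels' protocols. Per the submitters' processing notes the tools were Bowtie2, Trimmomatic and featureCounts, with build mm10. No source used here gives versions, read filters, the annotation, any shift for the Tn5 cut, or how duplicate and multiply matching reads were treated. The deposited values are RPKM per the labels, 1 per row and library. Each is whole reads over a length and over 1 of 8 totals that rotate from row to row, which 2936 short RNA genes with annotated lengths revealed. For each of the 3 rows exactly 1 rotation gave whole reads and a whole length, to within 3.9e-07 reads. A factor shared by a row's length and all its reads cannot be seen, so both are lower limits. The totals were placed on the libraries in rotation order so that exon shares were most alike, with a highest-to-lowest ratio of 1.36 against 4.17 to 10.1 for the 7 other placements. Shares of exon reads and ratios within a library do not depend on that placement.

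Rows were tested with limma 3.58.1 (R 4.3.3) on log2(RPKM + 0.1), for rows with a mean of at least 0.1, with no block, two-sided. The design had assumed 1 total per library, so values were rescaled first, and those as deposited serve as an alternative. Decoding and fit were tested on simulated data. Named besides the members were their table neighbours, the 5 most similar rows, the 10 densest rows and, per list, the 3 genes with the largest statistic. The members and lists were chosen with earlier results of these data known.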

Additional observations from a re-analysis of the deposited data

How the results depend on the processing

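The log2 differences of the 3 rows moved by more than 1 SD between replicates only in the values as deposited, at 1.97 for Gm26917 and 1.84 for CT010467.1, among 11 alternatives each. With 2 libraries a group, leaving 1 out or adding a block can hardly move a value by as much, so these alternatives say nothing of stability. Leaving out 1 library gave −0.54 to 0.41 for Gm26917, −0.29 to 0.65 for CT010467.1, −0.36 to 0.46 for Gm42418 and −0.50 to 0.54 for the sum, so none had a set direction. The difference of the sum was −0.04 per exon read and 0.13 without Gm26917. The count of rows called over the table was 0 in 10 of 14 alternatives, 5 with rows of 20 reads or more, 1 with voom, and 0 to 4349 when 1 library was left out, where the lone library is assumed to vary like the others. The genes of rRNA synthesis gave 0 calls in all 14. With the replicate number as a block, 0 rows were called, 1701 were higher and 718 lower at an unadjusted p under 0.05, and the difference of the sum was 0.02. Deviations of same-numbered libraries correlated at 0.37 over 2620 rows with at least 100 reads and at 0.04 over all tested rows. Rows are not independent replicates, and the labels do not say that a number marks a shared batch. The control values of Polr2h, Twistnb and Gar1 rest on 1 to 3 reads in each library.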

Other observations

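Other abundant small RNA genes, which share high transcription with rRNA, and the gene Lars2 had these values. They are given for controls 1 and 2 and Zscan4 OE 1 and 2, in that order. Reads rise with the library total, so RPM stands in brackets. Rn7sk, the RNA that holds the elongation factor P-TEFb inactive, had 12, 16, 97 and 57 reads (11.3, 5.51, 26.9 and 11.6 RPM). Rmrp, the RNA of an rRNA-processing ribonuclease, had 11, 7, 34 and 25 (10.4, 2.41, 9.43 and 5.10 RPM). Rn7s1, a gene of the signal recognition particle RNA, had 4, 5, 32 and 21 (3.77, 1.72, 8.87 and 4.29 RPM). Rn7s2, another, had 2, 4, 33 and 15 (1.88, 1.38, 9.15 and 3.06 RPM). Rpph1, the RNA of ribonuclease P, had 1, 0, 10 and 4 (0.942, 0, 2.77 and 0.816 RPM). Lars2, a mitochondrial leucyl-tRNA synthetase gene, had 8, 14, 48 and 41 (7.54, 4.82, 13.3 and 8.37 RPM). The limma adjusted p was 0.869 to 0.972 for these genes. The row Gm26870 had 0, 86, 1 and 37 reads (0, 29.6, 0.277 and 7.55 RPM). It was present almost only in the libraries numbered 2, where the 3 rRNA-like rows were low.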
